A study of Mus musculus with 9 samples.

Results

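Mitochondrial ribosomal protein genes were described across 3 groups of mouse stomach cells. They are the genes whose symbol starts with Mrpl or Mrps followed by a number, which names proteins of the large and of the small mitochondrial ribosomal subunit. There were 76 such genes among the 18193 genes that had a probe set of their own, 47 with an Mrpl symbol and 29 with an Mrps symbol. Each was represented by the probe set that names it alone and has the highest mean over the 9 arrays. Mrpl30 and Mrpl53 shared all of their probe sets with other genes and were not analysed here. The symbols do not map exactly onto the particle. Mrps30 and Mrps18a are known as proteins of the large subunit, and Mrps36 is known as a subunit of the 2-oxoglutarate dehydrogenase complex of the citric acid cycle. The rule did not use the array values in any other way than to pick the probe set.

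The mitochondrial ribosome builds the few proteins that are encoded by mitochondrial DNA, all of them core subunits of the respiratory chain and the ATP synthase. Its own proteins are encoded in the nucleus, made in the cytoplasm and imported, so that both genomes must be read together for a respiratory complex to be assembled. Most members descend from bacterial ribosomal proteins, and the others were added during the evolution of mitochondria. The acid-secreting parietal cell of the stomach is known for its dense packing with mitochondria, which supply ATP to the proton pump, whereas the chief cell is built for the synthesis and export of digestive enzymes.

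RNA from mouse stomach cells was hybridised to 1 Affymetrix array per sample, in 3 groups of 3. The isthmus group was Mist1+Tomato+ cells of the gastric corpus taken after Lgr5+ cells had been ablated. The parietal group was gastric parietal cells, and the sources used here do not say how they were obtained. The chief group was Mist1+Tomato+ corpus cells without that ablation. All mice were of the C57BL/6 strain, and age, sex and the way of ablation are not stated in these sources. Bhlha15 encodes Mist1, which controls genes of secretory cells that store enzymes, and Tomato is a red fluorescent reporter, so the isthmus and chief groups are defined by a reporter and not by a cell's position or secretory product. The labels do not say whether replicates came from separate mice, so a p-value measures no more than the spread between the arrays of a group, and part of that spread may be technical. In such bulk samples fewer cells of a type and less RNA per cell cannot be told apart.

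The labels were set against marker genes first. Of 9 parietal cell markers, 8 were higher on parietal than on chief arrays, and their summed linear signal was 15099 to 28317 on isthmus arrays, 69059 to 82134 on parietal arrays and 18089 to 33066 on chief arrays. All 6 tested chief cell markers were lower on parietal than on chief arrays, and 4 of the 6 were lower on isthmus than on chief arrays. Bhlha15 was listed at 0 on parietal replicate 3. Other cell types also differed between the groups. The summed signal of 5 enteroendocrine markers was 18661 to 41633 on isthmus arrays, 389 to 653 on parietal arrays and 36730 to 75016 on chief arrays, with none at 0. That of 5 dividing cell markers was 19568 to 25270 on isthmus, 6617 to 7569 on parietal and 11708 to 22474 on chief arrays. All 5 surface pit cell markers and both neck cell markers were lower on parietal than on chief arrays, and 4 of the 5 pit markers were lower on isthmus than on chief arrays. Summed pit marker signal was 67444 to 80509 on isthmus, 52241 to 59062 on parietal and 104122 to 129199 on chief arrays, and that of the neck markers was 11047 to 13116, 2747 to 7042 and 13081 to 28111 in the same order of groups. The connective tissue list spanned 150 to 25737 within the chief group, with chief replicate 3 at the high end. The part of these markers in the differences given here was not tested.

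Mitochondrial ribosomal protein transcripts were highest on the parietal arrays as a group, intermediate on the isthmus arrays and lowest on the chief arrays. All values are log2 signals, as deposited. The median over the 76 genes was 10.76, 10.63 and 10.71 on the isthmus arrays, 11.03, 10.99 and 10.88 on the parietal arrays, and 10.61, 10.54 and 10.46 on the chief arrays. The parietal arrays lay above the 6 others and the isthmus arrays above the chief arrays, with no overlap. Since arrays within a group had a pooled SD of 0.07 in this median, the gap between the nearest isthmus and chief arrays was smaller than that spread. No test was made on this median. By gene, 59 of the 76 members had their highest mean on parietal arrays, which was so for 35.5% of all 11006 genes tested. The isthmus mean was highest for 13 members, against 35% of all genes. The chief mean was highest for 4, namely Mrpl17, Mrpl22, Mrpl36 and Mrpl52, against 29.6% of all genes.

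**Figure D1:**
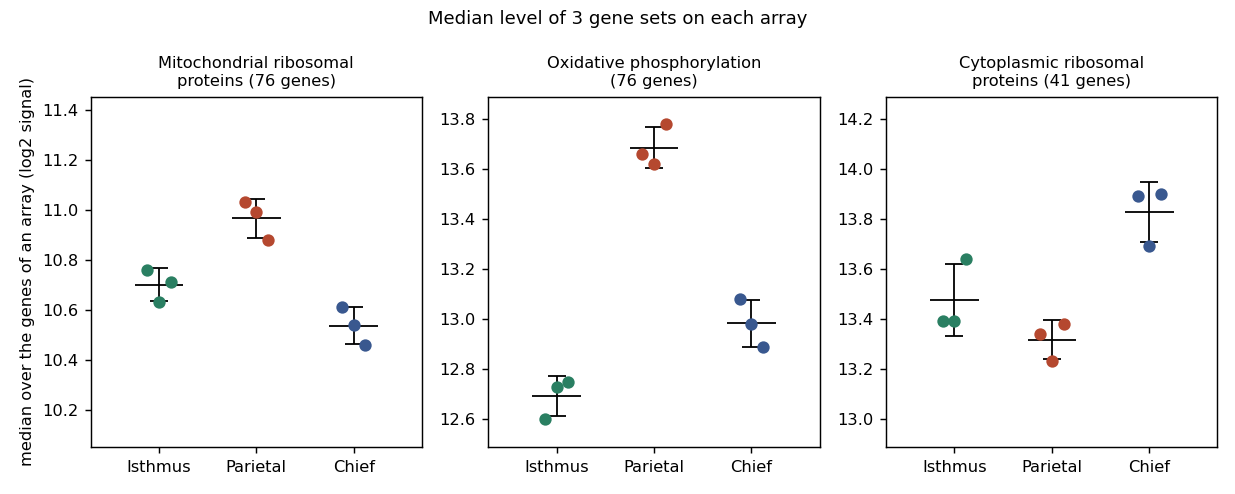
Median log2 signal over the genes of a set on each array, for the 76 mitochondrial ribosomal protein genes, 76 oxidative phosphorylation genes and 41 cytoplasmic ribosomal protein genes. Points are arrays, and lines and bars are the group mean and SD (n = 3 arrays). The mitochondrial ribosomal medians are 10.88 to 11.03 on parietal arrays and 10.46 to 10.61 on chief arrays, whereas the cytoplasmic ribosomal medians are highest on the chief arrays, as deposited.

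All 76 members passed the filter for testing, which asked for a signal above the array's own median on at least 3 of the 9 arrays. Of them, 75 lay above that median on all 9 arrays, and none of the 684 values was at 0. Mrps11 was the exception, with chief replicate 3 below its array median. The difference between groups was tested for each gene with limma across all 11006 genes, and a gene counts as called, or as having risen or fallen, at a Benjamini-Hochberg adjusted p under 0.05.

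Parietal over chief was the comparison with the most calls. Of 76 members 19 rose and 2 fell, or 25% and 2.63%, against a background of 10.7% higher and 13.5% lower among all genes tested. The median difference was 0.62 over the members and -0.10 over all genes, and 69 members had a positive difference. The parietal and chief arrays did not overlap for 37 members with the parietal arrays higher and for 2 with them lower, against 18.7% and 21.2% of all genes, and 33 higher and 2 lower members had an unadjusted p under 0.05, against 16.2% and 20.0% of all genes. Members of both subunits took part. Of 47 genes with an Mrpl symbol 11 rose and 2 fell, with a median of 0.62, and of 29 with an Mrps symbol 8 rose and 0 fell, with a median of 0.63. The 43 members with a bacterial counterpart held 9 that rose and 1 that fell (median 0.57), and the 32 specific to mitochondria also held 9 that rose and 1 that fell (median 0.65).

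The size of these counts depended on the arrays and on the scaling. Without parietal replicate 1, 2 or 3 the number of members that rose was 12, 12 and 9, against backgrounds of 7.42%, 7.22% and 6.87%. It was 8, or 10.5% against a background of 5.84%, without the 2 arrays high in Xist, parietal replicate 1 and chief replicate 3. When each array was centred on its median, all genes tested had a median difference of 0.59 and the members 1.32, so that 58 members were higher against a background of 28.2%. The members' median exceeded that of all genes by 0.73 as deposited, a gap that centring cannot alter, and by 0.53 after quantile normalization. Of the 19 members that rose, 7 kept their call whichever array was left out, namely Mrpl9, Mrpl34, Mrpl41, Mrpl57, Mrps9, Mrps21 and Mrps23.

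**Figure D2:**
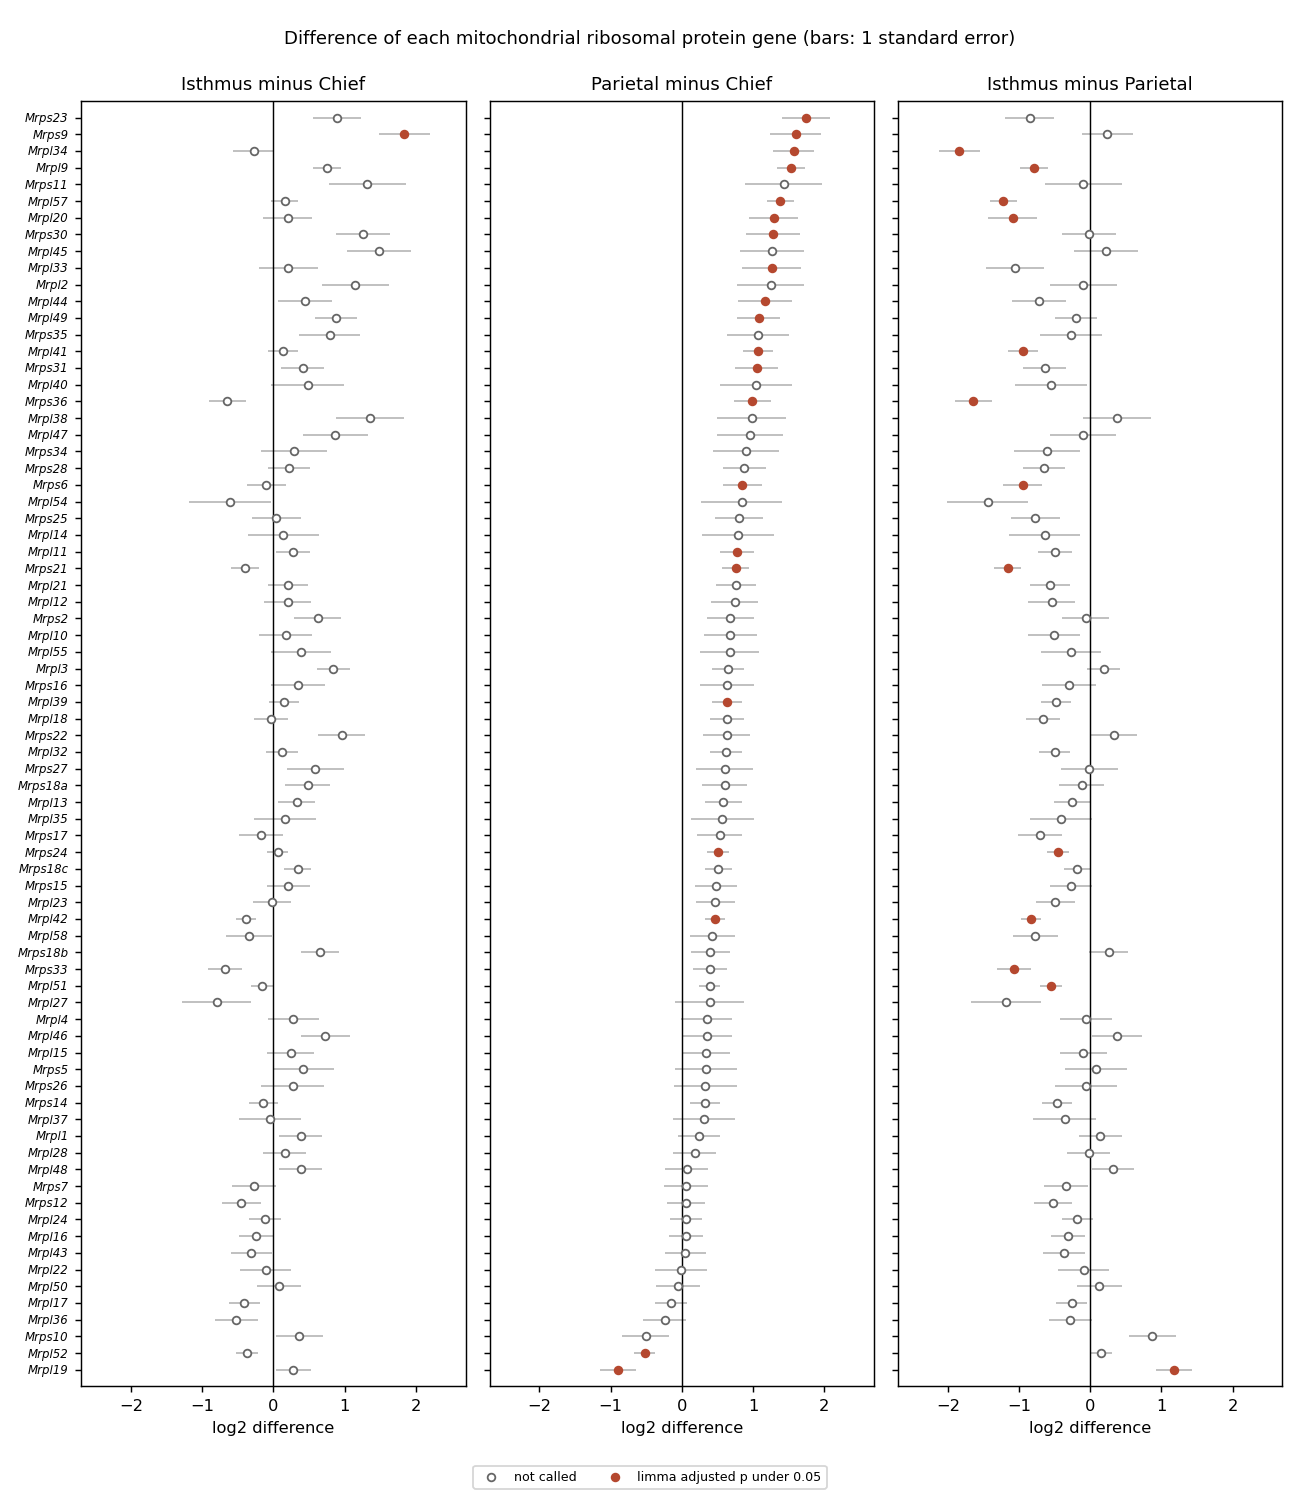
Log2 difference of each of the 76 members in the 3 comparisons, ordered by the parietal minus chief difference. Points are limma estimates, bars are 1 standard error, and filled points have an adjusted p under 0.05. In the middle panel 69 points lie right of 0, while the left panel holds 1 filled point, Mrps9.

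Of the large subunit genes with a bacterial counterpart, Mrpl9, Mrpl20 and Mrpl34 were called higher on parietal arrays than on both other groups. Mrpl9 had the smallest adjusted p of all members, with signals of 13.36, 13.23 and 13.33 on parietal arrays and 11.32, 12.18 and 11.82 on chief arrays. The lowest parietal array lay more than 1 log2 unit above the highest chief array, and the fold was 2.89 (limma difference 1.53 ± 0.20 SE, adjusted p = 0.000203). Isthmus arrays had 12.82, 12.37 and 12.37 and fell between the groups without overlapping either, and only their difference from parietal arrays was called (-0.79 ± 0.20, adjusted p = 0.0124). Both other probe sets of Mrpl9 also read higher on parietal than on chief arrays, by 2.11 and 1.2. Mrpl34, a very small protein of the large subunit in bacteria, had 11.08, 11.27 and 10.54 on isthmus arrays, 12.85, 12.77 and 12.80 on parietal arrays, and 11.68, 11.53 and 10.51 on chief arrays. The parietal arrays stood tightly together above all others, while isthmus and chief arrays overlapped. The parietal over chief fold was 2.96 (1.57 ± 0.29, adjusted p = 0.0019), and isthmus arrays were 3.59-fold below parietal arrays (-1.84 ± 0.29, adjusted p = 0.000543). Mrpl20, whose bacterial counterpart is needed early in the assembly of the large subunit, had 11.97, 12.05 and 12.14 on parietal arrays, against 11.34, 11.10 and 9.85 on chief arrays. Chief replicate 3 was the low one, and the difference of 1.29 ± 0.34 (adjusted p = 0.0156) lost its call only without parietal replicate 3 among the single arrays left out (adjusted p = 0.0537). Mrpl20 fell by 1.09 on isthmus over parietal arrays, a call (adjusted p = 0.0307) that ended without isthmus replicate 1 or 3 or any 1 of the parietal replicates (adjusted p up to 0.112).

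Among large subunit genes specific to mitochondria, Mrpl57, Mrpl41 and Mrpl42 were also called higher on parietal arrays than on both other groups. Mrpl57 had 11.10, 11.20 and 11.19 on isthmus arrays, 12.41, 12.32 and 12.43 on parietal arrays, and 10.97, 11.22 and 10.83 on chief arrays. Isthmus and chief arrays overlapped, and every parietal array stood above them. The parietal over chief fold was 2.60 (1.38 ± 0.19, adjusted p = 0.000234) and isthmus arrays were 2.33-fold below parietal arrays (-1.22 ± 0.19, adjusted p = 0.000449). Mrpl41 had 11.07, 11.75 and 11.64 on isthmus arrays, 12.51, 12.35 and 12.44 on parietal arrays, and 11.36, 11.23 and 11.49 on chief arrays, again with isthmus and chief arrays overlapping below the parietal ones. Its parietal over chief difference was 1.07 ± 0.21 (adjusted p = 0.00233) and its isthmus over parietal difference -0.95 ± 0.21 (adjusted p = 0.00433). Mrpl42 had smaller differences on more closely spaced arrays, with 12.47, 12.40 and 12.88 on isthmus arrays, 13.40, 13.37 and 13.48 on parietal arrays, and 13.14, 12.83 and 12.91 on chief arrays. Its isthmus mean was the lowest, with isthmus and chief arrays overlapping. The parietal over chief difference was 0.46 ± 0.14 (adjusted p = 0.0357) and the isthmus over parietal difference -0.83 ± 0.14 (adjusted p = 0.000999). The parietal over chief call ended without any 1 of 5 arrays, with adjusted p up to 0.113. Its other probe set lay below the array median on all 9 arrays, and the mean over both gave -0.30 (adjusted p = 0.735).

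Small subunit genes included the member with the largest parietal over chief difference. This was Mrps23, a mitochondria-specific protein, with 10.62, 10.93 and 10.96 on parietal arrays and 8.72, 9.48 and 9.09 on chief arrays. Every parietal array exceeded every chief array by more than 1 log2 unit, for a fold of 3.34 (1.74 ± 0.34, adjusted p = 0.00287). Isthmus arrays had 10.46, 9.61 and 9.88, above the chief and below the parietal arrays, with neither difference called (0.89 and -0.85, adjusted p = 0.217 and 0.085). Both other probe sets of Mrps23 were higher on parietal arrays too, by 2.0 and 1.42. Mrps21, a small protein with a bacterial counterpart, had 11.49, 11.49 and 12.03 on isthmus arrays, 12.94, 12.73 and 12.81 on parietal arrays, and 12.26, 12.12 and 11.82 on chief arrays. The parietal arrays were again the highest, and the isthmus arrays tended to lie lowest while overlapping the chief arrays. The parietal over chief difference was 0.76 ± 0.19 (adjusted p = 0.0112), and the isthmus over parietal difference -1.16 ± 0.19 (adjusted p = 0.000679), and without both arrays high in Xist the first of these calls ended (0.58, adjusted p = 0.128). Mrps6 and Mrps24, both with bacterial counterparts, rose by 0.85 and 0.51 on parietal over chief arrays (adjusted p = 0.0364 and 0.0274), and fell by 0.95 and 0.45 on isthmus over parietal arrays (adjusted p = 0.0198 and 0.042). Each of these Mrps6 and Mrps24 calls ended without any 1 of 4 or 5 arrays, with adjusted p up to 0.148.

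**Figure D3:**
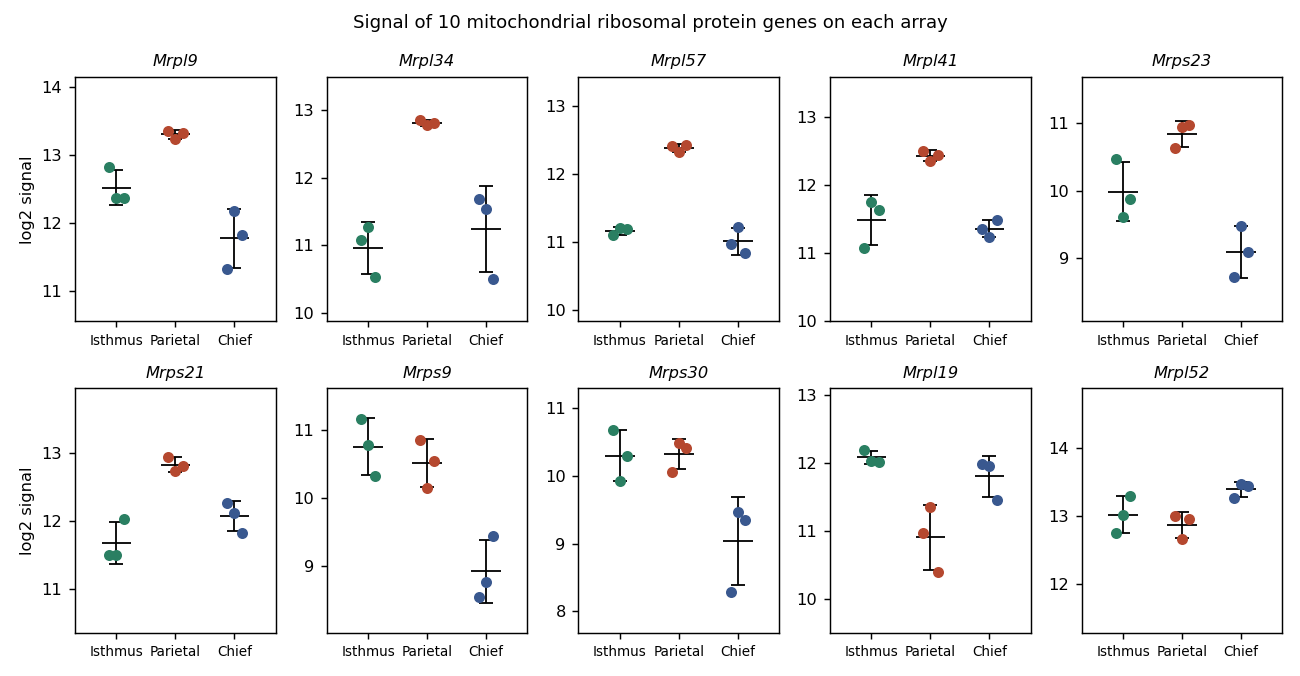
Log2 signal of 10 members on each array, in the isthmus, parietal and chief groups. Points are arrays, and lines and bars are the group mean and SD (n = 3 arrays). Mrpl9, Mrpl34, Mrpl57, Mrpl41 and Mrps21 are highest on the parietal arrays, Mrps9 and Mrps30 are lowest on the chief arrays, and Mrpl19 is lowest on the parietal arrays.

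Several members were low on chief arrays and overlapping on the other 2 groups. Mrps9, a small subunit protein with a bacterial counterpart, had 11.16, 10.79 and 10.33 on isthmus arrays, 10.85, 10.15 and 10.55 on parietal arrays, and 8.55, 8.77 and 9.44 on chief arrays. Isthmus and parietal arrays overlapped and all 6 lay above the chief arrays. The parietal over chief fold was 3.02 (1.60 ± 0.36, adjusted p = 0.00637). Mrps30, a mitochondria-specific protein of the large subunit in spite of its symbol, had 10.68, 9.92 and 10.29 on isthmus arrays, 10.06, 10.48 and 10.41 on parietal arrays, and 8.29, 9.46 and 9.35 on chief arrays. The chief arrays were the lowest without overlap, and the parietal over chief difference of 1.28 ± 0.38 was called (adjusted p = 0.0285) while the isthmus over chief difference of 1.26 was not (adjusted p = 0.12). Without any 1 of 3 arrays, parietal replicate 2, parietal replicate 3 or chief replicate 1, the Mrps30 call ended (adjusted p = 0.089, 0.0877 and 0.0812). Mrpl49 had 10.30, 10.30 and 10.11 on parietal arrays and 9.12, 9.10 and 9.26 on chief arrays, with isthmus arrays at 9.92, 10.23 and 9.96. Its parietal over chief difference was 1.08 ± 0.30 (adjusted p = 0.0218), and the call ended without any 1 of 3 arrays (adjusted p up to 0.0707).

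The other called members rose by less, or with wider spread. Mrps31, Mrpl33 and Mrpl44 had parietal over chief differences of 1.05, 1.26 and 1.17 (adjusted p = 0.0242, 0.0389 and 0.0398). Their calls ended without any 1 of 4, 5 and 4 arrays, and the other probe set of Mrps31 and 2 of the 3 others of Mrpl44 had the opposite sign. Mrpl11, whose bacterial counterpart sits at the base of the stalk that binds elongation factors, and Mrpl39 rose by 0.77 and 0.64 (adjusted p = 0.0335 and 0.04; up to 0.121 and 0.132 when 1 array was left out). Mrpl12, the protein of the stalk itself, had 11.41, 11.68 and 11.55 on parietal arrays and 10.55, 10.99 and 10.88 on chief arrays, without overlap, and its difference of 0.74 did not pass the test (adjusted p = 0.122). Mrps36, the 2-oxoglutarate dehydrogenase subunit, had 10.32, 10.05 and 10.57 on isthmus arrays, 12.19, 11.76 and 11.91 on parietal arrays, and 10.71, 10.81 and 11.37 on chief arrays. The 3 groups did not overlap, with the isthmus arrays lowest. Mrps36 rose 1.99-fold on parietal over chief arrays (0.99 ± 0.26, adjusted p = 0.0141; 0.0677 without parietal replicate 1) and was 3.12-fold lower on isthmus than on parietal arrays (-1.64 ± 0.26, adjusted p = 0.000521).

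Mrpl19 and Mrpl52 went against the others. Mrpl19, with a bacterial counterpart at the interface of the subunits, had 12.20, 12.03 and 12.02 on isthmus arrays, 10.97, 11.35 and 10.40 on parietal arrays, and 11.99, 11.96 and 11.46 on chief arrays. The parietal arrays were the lowest without overlap, at -0.90 ± 0.25 against chief arrays (adjusted p = 0.0208), and isthmus arrays were 2.26-fold above parietal arrays (1.18 ± 0.25, adjusted p = 0.00389). It was the 1 member with all 3 parietal arrays below the 6 others, against 14.1% of all genes, whereas 22 members had all 3 above, against 12.8%. Its 4 probe sets disagreed. The brightest gave -0.90 and another, which was dim on some arrays, -0.10, while the remaining ones gave 0.87 and 0.74, and the mean over all of them gave 0.15 (adjusted p = 0.808). With centred arrays the brightest gave -0.20 (adjusted p = 0.644). On isthmus over parietal arrays the other probe sets of Mrpl19 gave 0.15, -0.08 and -0.32. The mean over all its probe sets gave 0.23 there (adjusted p = 0.699). Mrpl52 had 12.99, 12.65 and 12.95 on parietal arrays, against 13.26, 13.47 and 13.43 on chief arrays, without overlap (-0.52 ± 0.15, adjusted p = 0.0231). With each array centred on its median the sign of Mrpl52 turned, to 0.17 (adjusted p = 0.384), so its direction rests on the scaling, although 2 of its other probe sets also read lower on parietal arrays, by -0.77 and -0.63, as deposited. The Mrpl19 call ended without parietal replicate 3, chief replicate 1 or chief replicate 2 (adjusted p = 0.0873, 0.0632 and 0.0643), and the Mrpl52 call without parietal replicate 2, chief replicate 2 or chief replicate 3 (adjusted p = 0.0955, 0.0678 and 0.0638).

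Agreement between the probe sets of a gene was counted for all calls. Of the 21 members called between parietal and chief arrays, 15 had another probe set that was above the array median on at least 3 arrays, 26 in all. Of these 19 had the sign of the called difference and 7 the opposite sign, in Mrpl19, Mrpl44, Mrpl52, Mrps9 and Mrps31. Of the 13 members called between isthmus and parietal arrays, 8 had such a probe set, 12 in all. Of these 9 had the sign of the called difference and 3 the opposite sign, in Mrpl19 and Mrpl51. With all probe sets of each gene averaged, 12 members were called higher and 0 lower on parietal over chief arrays, against a background of 9.22% higher. Of the 21 calls 8 were kept, and Mrps25, not called from its brightest probe set, was called with this average. Mrpl32, Mrpl45 and Mrps28 were also called in this fit alone. They have no other probe set, so their own values were the same as before.

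Isthmus over parietal held 12 members that fell and 1 that rose, Mrpl19, or 15.8% and 1.32%, against a background of 12.2% lower and 15.4% higher. The median difference was -0.35 over the members and 0.09 over all genes, and 62 of the 76 members had a negative difference. The arrays did not overlap for 28 members with isthmus lower and 2 with isthmus higher, against 20.3% and 24.0% of all genes. Of the 12 members that fell, 10 are those already named as called above both other groups on parietal arrays, namely Mrpl9, Mrpl20, Mrpl34, Mrpl41, Mrpl42, Mrpl57, Mrps6, Mrps21, Mrps24 and Mrps36. The remaining ones were Mrps33 and Mrpl51, both specific to mitochondria. The share of all genes that were called higher on parietal arrays than on both other groups was not counted. Mrps33 had 10.95, 10.53 and 11.38 on isthmus arrays and 11.86, 11.90 and 12.32 on parietal arrays, without overlap (-1.07 ± 0.24, adjusted p = 0.00564), with chief arrays between them at 11.66, 11.44 and 11.80. Mrpl51 had 12.75, 12.57 and 12.91 on isthmus arrays, against 13.26, 13.26 and 13.36 on parietal arrays (-0.55 ± 0.15, adjusted p = 0.0155; 0.0653 without isthmus replicate 2 and 0.0584 without parietal replicate 3). With each array centred on its median 25 members fell against a background of 17.3%, and without the intensity trend in the variance model 7 fell, or 9.21%, the same share as the background of 9.21%. With all probe sets of each gene averaged 8 fell, or 10.5% against a background of 11%, and 0 rose, against 14.8%. Of the 13 calls 6 were kept, and that of Mrpl19 was not.

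Isthmus over chief, the comparison of Mist1+Tomato+ cells with and without ablation of Lgr5+ cells, gave 1 call among the members. This was Mrps9, and 0 members fell, against a background of 0.391% higher and 1.26% lower. The Mrps9 signals given above amount to a 3.58-fold difference (1.84 ± 0.36, adjusted p = 0.029), and all 3 isthmus arrays exceeded all 3 chief arrays. The call ended without isthmus replicate 1 or 2, parietal replicate 3, or chief replicate 1 or 2 (adjusted p = 0.122, 0.0815, 0.0511, 0.106 and 0.0546). Of the other 3 probe sets of Mrps9, 2 were higher on isthmus than on chief arrays, by 1.52 and 0.61, and 1 was lower, by -1.49. The members' median difference was 0.20 and that of all genes 0.03, with 52 members positive and 24 negative. Members whose arrays did not overlap numbered 15 with isthmus higher and 4 with isthmus lower, against 10.6% and 10.5% of all genes, and an unadjusted p under 0.05 was found for 12 higher and 4 lower members, against 8.28% and 9.11%.

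The largest isthmus over chief differences after Mrps9 did not pass the test. Mrpl45, whose yeast relative tethers the ribosome to the inner membrane, had 8.99, 8.74 and 9.28 on isthmus arrays and 7.89, 7.10 and 7.59 on chief arrays, without overlap (1.48 ± 0.45, adjusted p = 0.122). Mrpl38 had 9.33, 9.41 and 8.96 on isthmus arrays and 7.76, 7.39 and 8.46 on chief arrays, also without overlap (1.36 ± 0.48, adjusted p = 0.171). Mrps11 had 8.94, 8.63 and 8.22 on isthmus arrays and 7.44, 7.89 and 6.49 on chief arrays, a difference of at least 2.38-fold since chief replicate 3 was below its array median (adjusted p = 0.233). Mrpl9 differed by 0.75 (adjusted p = 0.0906), and was called when arrays were centred (1.12, adjusted p = 0.0355) or without chief replicate 2 (0.95, adjusted p = 0.0412). Of the members lower on isthmus arrays, Mrps33, Mrps36 and Mrpl42 had the smallest adjusted p-values, with differences of -0.68, -0.65 and -0.38 (adjusted p = 0.177, 0.223 and 0.211). All 3 were also among the members that fell on isthmus over parietal arrays.

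**Figure D4:**
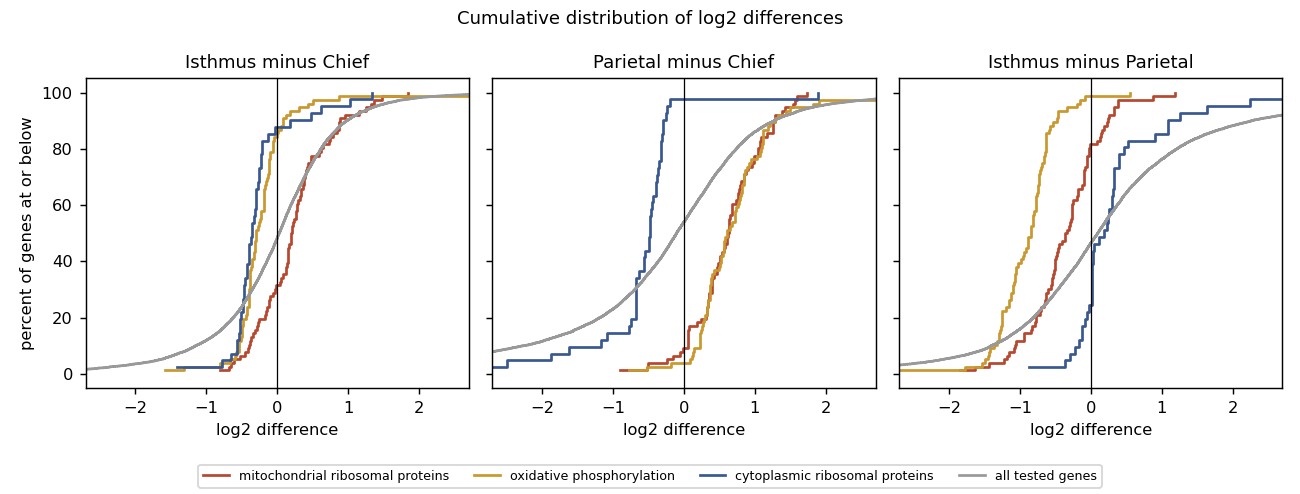
Cumulative distribution of the log2 differences in the 3 comparisons, for the 76 members, 76 oxidative phosphorylation genes, 41 cytoplasmic ribosomal protein genes and all 11006 genes tested. A curve shifted right means higher differences. The members and the oxidative phosphorylation genes nearly coincide in parietal minus chief, with medians of 0.62 and 0.60, and lie apart in isthmus minus chief, with medians of 0.20 and -0.29 on the deposited scale (0.58 and 0.09 with centred arrays).

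The respiratory chain, whose mitochondrially encoded subunits the mitochondrial ribosome makes, offers one comparison. The nuclear genes of oxidative phosphorylation, 76 of them tested, had a parietal over chief median of 0.60, close to the members' 0.62. Yet 57 of them rose and 0 fell, or 75% higher against 25% of the members. Among all genes 10.7% rose and 13.5% fell. Replicates also differed in how closely they agreed. The SD within the parietal group had a median of 0.24 over the members and 0.12 over the oxidative phosphorylation genes, and within the chief group of 0.40 and 0.13. Over all genes tested it was larger, at 0.42 and 0.53 in these groups. The oxidative phosphorylation genes were also brighter, with a mean array median of 13.68 on parietal arrays against 10.97 for the members. The part of brightness in these SDs was not tested. In isthmus over chief the members' median was 0.20 with 52 of 76 positive, whereas the oxidative phosphorylation median was -0.29 with 11 of 76 positive. Of the oxidative phosphorylation genes 0 were called higher and 4 lower, or 5.26% lower, against 0.391% higher and 1.26% lower among all genes. The side of 0 on which these medians fall depends on the scaling, since the oxidative phosphorylation median was 0.09 with centred arrays and -0.04 after quantile normalization. The members' median lay above it by 0.49 as deposited, a gap that centring cannot alter, and by 0.20 after quantile normalization. In isthmus over parietal 69 oxidative phosphorylation genes fell, or 90.8%, with a median of -0.85. Beside them 12 members fell, or 15.8%, with a median of -0.35, and 12.2% of all genes fell. The difference between the sets was not tested.

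Cytoplasmic ribosomal protein genes, which build the ribosomes of the rest of the cell, had lower median log2 differences than the members in both comparisons with chief cells. Of 41 tested, 0 rose and 29 fell on parietal over chief arrays, or 70.7% lower, with a median of -0.48. Among all genes 10.7% rose and 13.5% fell. The medians per array were 13.34, 13.23 and 13.38 on parietal arrays, against 13.89, 13.69 and 13.90 on chief arrays. The members' median lay 1.10 above theirs. On isthmus over chief arrays 8 cytoplasmic ribosomal protein genes fell and 0 rose, or 19.5% lower, against 1.26% lower and 0.391% higher among all genes. Their median was -0.36, while the members' median was 0.20. The direction of the cytoplasmic genes depends on the scaling too. With centred arrays 6 rose and 1 fell on parietal over chief arrays (median 0.22), against 28.2% and 7.33% of all genes (median 0.59). On isthmus over chief arrays 0 were then called (median 0.02), against 2.09% higher and 0.418% lower (median 0.41). Both medians thus stayed below those of all genes with centred arrays. After quantile normalization the medians of the cytoplasmic genes were -0.42 and 0.06. Quantile normalization put the members' median above that of the cytoplasmic genes by 0.98 in parietal over chief, against 1.10 as deposited, and by 0.11 in isthmus over chief, against 0.56 as deposited.

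Other parts of mitochondrial protein synthesis were counted in the same way, on parietal over chief arrays against the background of 10.7% higher, and their difference from the members was not tested. Of 5 further mitochondrial ribosomal proteins that carry other symbols, 2 rose, or 40%, namely Dap3 and Gadd45gip1. Dap3, a GTP-binding protein of the small subunit, had 11.23, 11.08 and 11.51 on parietal arrays and 10.21, 10.08 and 10.91 on chief arrays, without overlap (0.87, adjusted p = 0.043). Gadd45gip1, a large subunit protein, was at least 3.67-fold higher on parietal arrays (adjusted p = 0.0266). Of 11 translation factors 2 rose, or 18.2%, the initiation factor Mtif2 by 1.12 and the elongation factor Gfm1 by 1.27 (adjusted p = 0.0477 and 0.0309). Of 24 genes for assembly and rRNA modification 3 rose, or 12.5%, Nsun4, an RNA methyltransferase, by 2.12, Fastkd2 by 1.30 and Trmt2b by 1.0 (adjusted p = 0.013, 0.0442 and 0.0483). Of 19 genes for charging mitochondrial tRNAs 1 rose, or 5.26%. This was Qrsl1, a subunit of the enzyme that makes glutaminyl-tRNA, which rose on parietal over chief arrays by 2.06 (adjusted p = 0.00168) and on isthmus over chief arrays by 1.72 (adjusted p = 0.0428). Qrsl1 signals were 11.25, 10.93 and 10.69 on isthmus arrays, 11.32, 11.57 and 11.00 on parietal arrays, and 8.39, 9.96 and 9.35 on chief arrays, with chief arrays lowest without overlap, as for Mrps9. Its isthmus over chief call ended without any 1 of 8 arrays (adjusted p up to 0.156). The calls of Dap3, Gadd45gip1, Mtif2, Gfm1, Fastkd2 and Trmt2b ended without any 1 of 5 to 8 arrays, with adjusted p up to 0.154, and that of Nsun4 without 1 array (adjusted p = 0.0527).

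Upstream and downstream of translation the picture was mixed. Of 19 genes for mitochondrial DNA, its transcription and its RNA, 4 rose and 1 fell on parietal over chief arrays. These are 21.1% and 5.26%, against 10.7% and 13.5% of all genes. Hsd17b10, a dehydrogenase that is also part of mitochondrial RNase P, rose by 2.06 (adjusted p = 0.00018), whereas Prorp, the nuclease subunit of the same enzyme, had 8.37, 8.39 and 8.52 on parietal arrays and 9.85, 10.30 and 11.06 on chief arrays, and fell by 1.98 (adjusted p = 0.00175). Grsf1, an RNA-binding protein of mitochondrial RNA granules, rose by 0.75 (adjusted p = 0.00644). Tefm and Tfb2m rose as well, with calls that ended without any 1 of 5 arrays (adjusted p up to 0.117 and 0.129). Of 17 genes for import, porins and chaperones, a list that also held the citrate synthase gene Cs, 7 rose and 0 fell, or 41.2% higher. The inner membrane translocase subunits Timm17b, Timm23 and Timm17a rose by 1.55, 0.99 and 0.63 (adjusted p = 0.00228, 0.0104 and 0.00622). The others that rose were Cs, Hspa9, Tomm22 and Vdac3. The calls of Hspa9, Tomm22 and Vdac3 ended without some single arrays (adjusted p up to 0.202). In isthmus over chief none of the genes in these lists other than Qrsl1 was called.

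Known regulators of nuclear genes for mitochondria did not share one direction. Of 11 listed, 4 rose and 1 fell on parietal over chief arrays, or 36.4% and 9.09%, against 10.7% and 13.5% of all genes. Their median difference was -0.09. Gabpa, Gabpb1, Yy1, Esrra, Myc and Pprc1 were not called in that comparison. Nrf1, a transcription factor with binding sites at many such genes, had 8.78, 9.0 and 9.49 on isthmus arrays, 6.86, 6.52 and 8.09 on parietal arrays, and 8.04, 9.54 and 9.94 on chief arrays. Parietal replicate 3 lay just above chief replicate 1, and the parietal over chief difference was -2.02 (adjusted p = 0.0282; up to 0.111 when 1 array was left out). The coactivators Ppargc1a and Ppargc1b were higher on parietal over chief arrays by 2.65 and 1.86 (adjusted p = 0.000872 and 0.000301), and the nuclear receptors Esrrg by 1.52 (adjusted p = 0.00166) and Esrrb at least 4.58-fold (adjusted p = 0.0148; up to 0.0741 when 1 array was left out). On isthmus over parietal arrays Nrf1, Myc and Pprc1 rose, and Ppargc1a, Ppargc1b, Esrrg and Esrrb fell. These shares were 27.3% and 36.4%, against 15.4% and 12.2% of all genes. The Nrf1 and Pprc1 calls ended without any 1 of 5 and 4 arrays.

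Promoters were read for short motifs of 3 factors known at nuclear genes for mitochondria, in the 300 bases from 250 before to 50 after the start of transcription. RefSeq windows on GRCm38.p6 matched 67 of the 76 members. The NRF-1 core, GCGCANGCG on either strand, was in 15 of 67 members, or 22.4%, against 15.8% of tested genes and 7.03% of all genes with a window. The ETS-type core CCGGAAG was in 25 members, or 37.3%, against 21% and 9.93%, and the YY1 core AAGATGG in 13 members, or 19.4%, against 8.64% and 7.28%. At least 1 of the 3 motifs was in 42 members, or 62.7%, against 38.5% of tested genes. The median parietal over chief difference was 0.74 with and 0.55 without the NRF-1 core, 0.51 with and 0.68 without the ETS-type core, and 0.51 with and 0.65 without the YY1 core. These are descriptions of letters in a window and not of binding.

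The 120 bases before the start are shown for 4 members called higher on parietal arrays than on both other groups, Mrpl9 and Mrpl57 for their small adjusted p-values, Mrps21 as a small subunit gene and Mrpl34 for its difference from isthmus arrays. They lie at chr3:94443216-94443335 on the plus strand (Mrpl9), chr14:57826119-57826238 on the plus strand (Mrpl57), chr3:95871515-95871634 on the minus strand (Mrps21) and chr8:71464806-71464925 on the plus strand (Mrpl34). Capitals mark the NRF-1 core on either strand in the first 3, with a pair of overlapping matches in Mrpl9, and the ETS-type core in Mrpl34. These 4 do not stand for the rest of the 10 members called higher on parietal arrays than on both other groups. Among the 10 the NRF-1 core was in the first 3 shown only. Mrpl42 and Mrps24 held the YY1 core alone, and Mrpl20, Mrpl41, Mrps6 and Mrps36 held none of the motifs.
Mrpl9: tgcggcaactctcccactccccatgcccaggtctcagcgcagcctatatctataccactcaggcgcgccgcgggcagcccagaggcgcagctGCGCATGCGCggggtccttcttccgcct
Mrpl57: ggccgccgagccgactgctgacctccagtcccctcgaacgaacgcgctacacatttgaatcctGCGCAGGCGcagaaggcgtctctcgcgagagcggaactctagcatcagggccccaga
Mrps21: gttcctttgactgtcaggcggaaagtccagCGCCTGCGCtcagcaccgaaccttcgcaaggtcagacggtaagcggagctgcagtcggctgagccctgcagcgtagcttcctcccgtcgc
Mrpl34: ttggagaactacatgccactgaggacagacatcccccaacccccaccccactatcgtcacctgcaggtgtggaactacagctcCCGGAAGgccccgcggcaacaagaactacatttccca

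The members were spread over the autosomes, with none on the X chromosome. Chromosome 11 held 11 of them, or 14.5%, against 8.22% of tested genes, and chromosome 17 held 8, or 10.5%, against 4.93%. Among those on chromosome 11, Mrps23 and Mrps24 were called higher on parietal over chief arrays, and the other 9 were not. Mrpl38 had 9.25, 9.11 and 8.20 on parietal arrays, against the chief values given above, with parietal replicate 3 inside the chief range and an adjusted p of 0.16. Mrpl27 was the member whose isthmus arrays lay furthest below the chief arrays, at 7.95, 8.65 and 8.15 against 8.44, 8.77 and 9.93, with overlap and an adjusted p of 0.439.

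The members with no call in any comparison numbered 53. Those with the parietal over chief difference closest to 0 included Mrpl22, with 10.91, 11.85 and 11.01 on parietal arrays and 10.63, 11.14 and 12.04 on chief arrays, where the groups overlapped. Mrpl58, a peptidyl-tRNA hydrolase that rescues stalled ribosomes and is built into the large subunit, had 11.01, 11.24 and 11.51 on parietal arrays, against 10.62, 11.26 and 10.60 on chief arrays. Its groups also overlapped, at a difference of 0.43. The 3 proteins of the Mrps18 family, which share an ancestor but sit in both subunits, had parietal over chief differences of 0.60 for Mrps18a, 0.40 for Mrps18b and 0.51 for Mrps18c, and 0 of them was called. Mrps10 was the uncalled member furthest in the opposite direction, with 10.12, 9.83 and 10.18 on parietal arrays and 10.44, 10.01 and 11.22 on chief arrays (-0.51, adjusted p = 0.289).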

How the data were processed

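Each sample's total RNA was read on its own biotin-labelled Affymetrix array, per the labels' protocols. The deposited values are log2 signals that the authors made with MAS5, per the submitters' processing notes, whose version and log step the sources used here do not state. Read as base 2, every array had a 2% trimmed mean signal of 496 to 497 and a median signal of 55.7 to 104. The number of arrays limits the precision.

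Of 45037 probe sets, 34945 named 1 gene, 932 several and 9160 none in the platform annotation. A RefSeq table of GRCm38.p6 matched 34741 and changed 0 symbols. A gene was its brightest single-gene probe set. Genes exceeding the median of an array on 3 or more of the 9 arrays, 11006 in all, entered limma 3.58.1 under R 4.3.3 (eBayes with an intensity trend) in 1 fit of all 9 arrays and 3 group means, with 6 residual degrees of freedom, two-sided, with Benjamini-Hochberg adjustment over all of them in each comparison. All adjusted p-values given are limma's. A fold is a lower bound where an array of the dimmer group was below its own array median, which then took the place of that value. The fit was tested on simulated data.

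The members, the lists, the motifs and the alternatives were chosen with earlier results of these data known, and no set test was made. Members picked for naming were, per comparison, the 8 called with the largest difference in each direction or the 3 with the smallest adjusted p where none was called. Also picked were the 4 with the highest and the 4 with the lowest mean, those whose probe sets disagree, and Mrpl12, Mrpl58, Mrps30, Mrps36 and the Mrps18 genes. Of these, Mrpl14 and Mrpl54, among the 4 lowest means, are not described. From the other lists not every called gene is named, and genes called in isthmus over parietal are named for the regulators alone. Every other member was named after its values had been seen. The alternatives are given in the closing section. Replicate numbers in the titles were checked for pairing, and deviations from the group mean of same-numbered arrays correlated at -0.037 to 0.073, so the numbers were not used to pair arrays.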

Additional observations from a re-analysis of the deposited data

How the results depend on the processing

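The counts given in the text were recomputed under 20 alternatives. With each array centred on its median the members called became 3 higher in isthmus over chief, 58 higher and 0 lower in parietal over chief, and 25 lower in isthmus over parietal, with median differences of 0.58, 1.32 and -0.67. The shares of all genes tested were 2.09%, 28.2%, 7.33% and 17.3% in the same order. With the mean over all probe sets of a gene there were 0 higher in isthmus over chief, and 12 higher and 0 lower in parietal over chief. The shares of all genes were 0.191%, 9.22% and 13.7% in the same order. In isthmus over parietal 0 were higher, against 14.8% of all genes, and 8 lower, or 10.5% against 11%. Mrpl19 and Mrpl42 then turned sign in parietal over chief, to 0.15 and -0.30, and Mrpl52 turned to 0.17 with centring. Without the intensity trend 0 were higher in isthmus over chief, against 0.0727% of all genes. In parietal over chief 11 were then higher and 0 lower, against 7.24% and 10.6%. In isthmus over parietal 1 was higher and 7 lower, against 13.1% and 9.21%. With only the groups compared in the fit, 0 were higher in isthmus over chief, against 0.173% of all genes. In isthmus over parietal 2 were then higher and 14 lower, against 16% and 13.5%. Without both arrays high in Xist 8 were higher and 1 lower in parietal over chief, against 5.84% and 8.7% of all genes. The isthmus over parietal median was then -0.28, with 11 lower, against 9.09% of all genes. When 1 array was left out, the members higher in isthmus over chief ranged from 0 to 1, against 0% to 0.418% of all genes. In parietal over chief 9 to 19 were higher and 0 to 2 lower, against 6.87% to 10.6% and 10.3% to 13.2%. In isthmus over parietal 1 to 2 were higher and 8 to 13 lower, against 11.8% to 16.2% and 8.43% to 13.1%, with a median of -0.41 to -0.28. The cause of these changes was not tested. With the replicate number as a block, 1 member was higher in isthmus over chief, 19 were higher and 2 lower in parietal over chief, and 13 were lower in isthmus over parietal. The shares of all genes were 0.191%, 10.2%, 13.2% and 11.9% in the same order. Over all members and the called genes of the other mitochondrial lists, 6049 recomputed differences kept their call or stayed without one, 351 lost and 125 gained a call, and 3 called differences turned sign, those just given. Small differences of single members, of the size of their SE, could not be resolved with 3 arrays a group.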
